A study of Mus musculus with 4 samples.

Results

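The genes described here encode the constitutive proteasome and its regulators, followed in the ileum of mice given the glucose-lowering biguanide metformin. They were taken as every gene whose RefSeq symbol starts with Psma, Psmb, Psmc, Psmd or Psme, leaving out the immunoproteasome genes Psmb8, Psmb9 and Psmb10. That rule found 42 genes, measured by 52 probes, among the 21649 genes and unnamed transcripts tested in the series. Total ileal RNA was measured on 4 single-colour arrays, 2 from C57BL/6J male mice treated by mouth with metformin at 1000 mg/kg and 2 from C57BL/6J male controls. All mice were 10 weeks old per the labels, which name no duration and no vehicle. Whether each array stands for a mouse of its own is not stated, and the p-values below measure spread that may be technical.

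The proteasome is the protease that degrades proteins tagged with ubiquitin. Its barrel-shaped core particle stacks outer rings of alpha subunits on inner rings of beta subunits, 3 of which, Psmb5, Psmb6 and Psmb7, cut peptide bonds. A regulatory particle caps the barrel: its base holds a ring of ATPases that unfold the substrate and feed it into the core, and its lid removes the ubiquitin chain. Separate activators, encoded by the Psme genes, can dock on the core in place of the regulatory particle. In the intestine the proteasome works in the steady turnover of a fast-renewing epithelium, and interferon gamma exchanges the catalytic subunits for those of the immunoproteasome. When proteasome activity is short, the transcription factor Nfe2l1 is known to raise subunit genes together through antioxidant response elements.

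Of the 42 genes, 40 were well above background on all 4 arrays. The other 2, Psma8, an alpha subunit of testis, and Psmb11, a beta subunit of thymus, were not well above background on any array and had no kept value. Of the 40, Psmc3ip, a cofactor of meiotic recombination, and Psme3ip1, a binding partner of the activator subunit Psme3, are not parts of the particle though their symbols fit the rule. The remaining 38 are 7 alpha and 7 beta subunits, 6 ATPases and 3 other subunits of the base, 8 lid subunits, 3 chaperones of base assembly and 4 activator genes. These 38 are called proteasome genes below.

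Marker levels of other cell types differed within and between the groups. The array 75th percentile signals were 866 and 1072 in metformin 1 and 2, against 918 and 1455 in control 1 and 2, and between 65.2% and 69.1% of the probes of an array were well above background. All 9 markers of ileal epithelium were measured. Slc10a2, the ileal bile acid transporter, read -0.90 and 4.92 in metformin 1 and 2, against 4.45 and 3.28 in control 1 and 2 (log2). Metformin 1 was the lowest sample for Slc10a2, Fabp6, Fgf15, Slc51a and Slc51b, and the highest for the other 4 markers, Cdh17, Krt20, Lgals4 and Vil1, which are general to intestinal epithelium. Smooth muscle markers, 7 of 7 measured, summed to 4.22 and 5.47 with metformin and to 130 and 6.50 in the controls (linear signal relative to the 75th percentile), so control 1 stood apart in muscle. All 7 had a lower mean with metformin, 6 of them without overlap, beside 8.57% of all genes. Their median difference was -3.17 with all 4 samples and -0.64 without control 1. Fibroblast markers summed to 3.62 and 1.56 with metformin and to 14.7 and 6.44 in controls. Of these, 7 of 7 were lower without overlap, again beside 8.57% of all genes. Their median difference was -2.08, and -1.36 without control 1. An unadjusted p under 0.05 was found for 6, and none passed the adjusted test. Dpt, counted in both, was not well above background on either metformin array (-8.49 and -8.09), so it was kept only through the controls. The part of muscle cells and fibroblasts in the proteasome values was not tested. Results over all 38 genes, and those of some single genes, are given below also without metformin 1 or control 1. Medians of the sub-complexes are from all 4 samples, and they moved when 1 was left out. Without metformin 1 and without control 1 they were 0.21 and -0.01 for the alpha ring, and 0.18 and -0.18 for the lid. For the activators they were 0.10 and 0.19.

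Proteasome transcripts were nearly level between metformin and control ileum. In the 38 genes the log2 difference, metformin minus control, ran from -0.10 in Psmd5 to 0.33 in Psme2 with a median of 0.07, where all genes tested had a median of 0.06. None of the 38 passed limma's test after Benjamini-Hochberg adjustment over all genes, at a background of 0% called, and none had an unadjusted p under 0.05 (smallest 0.405), where 346 of all genes did. For every one of the 38 the 95% interval of the difference included 0. Its median half-width, not adjusted for the number of genes, was 0.79 on the log2 scale, or 1.73-fold, and the adjusted test left larger differences than that uncalled in other genes. In 35 of the 38 genes the larger of the gaps between samples of a group exceeded the difference between the groups, beside 87.4% of all genes and 89.4% of the genes whose mean lay above the 75th percentile, so that the count is near the background.

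The mean was higher with metformin in 30 genes and lower in 8, where 57.6% of all genes were higher. Of the 8583 genes whose mean lay above the 75th percentile, 5605 were higher, at a median difference of 0.10. The split of the 38 turned to 12 higher and 26 lower with quantile normalization, and to 1 higher and 37 lower in the authors' series table as it stands, in which the median of all genes was itself -0.17. It was 12 and 26 without metformin 2, 38 and 0 without metformin 1, 21 and 17 without control 1, and 37 and 1 without control 2. In 8 of the 38 both metformin values lay above both control values, beside 12.4% of all genes and 13.7% of the 8583 genes whose mean lay above the 75th percentile. In none did both lie below, beside 8.57% of all genes. Without metformin 1 the first count was 36 of 38, beside 28.0% of all genes. Without metformin 2 it was 10, beside 42.7% of all genes, with 19 lower beside 31.7%. Without control 1 it was 10, beside 42.6%, and without control 2 it was 17, beside 24.6%.

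The subunits of the core and regulatory particles also stayed close to one another. Over these 31 genes the log2 differences had an SD of 0.066 and the largest in size was 0.17, or 1.13-fold. Of all genes tested, 41.3% had a difference no larger than that, and of the brighter 8583 genes 48.1%. That limit rested on all 4 samples: it was 0.47 (Psmd12) without metformin 1, 0.45 (Psmd7) without metformin 2, 0.29 (Psmd7) without control 1 and 0.44 (Psmd12) without control 2, and 79.0%, 53.6%, 41.5% and 72.3% of all genes then lay within it. It was 0.34 in the authors' series table as it stands and 0.30 with the array median, where 69.5% and 53.8% lay within it. The SD of the differences was 0.495 over all genes and 0.32 over the brighter ones, and 36 of the 38 proteasome genes lay in that brighter class.

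**Figure D1:**
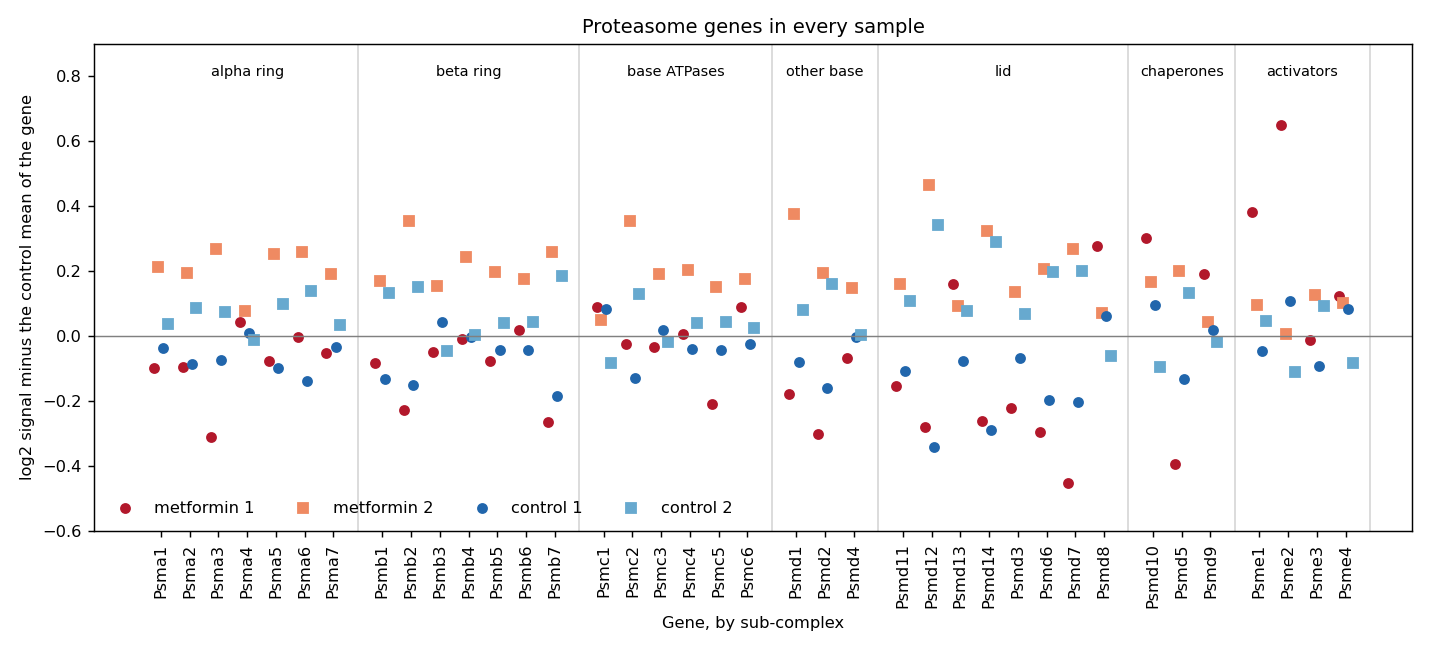
Level of each of the 38 proteasome genes in every sample (log2, with the control mean set to 0) on the vertical axis, ordered by sub-complex along the horizontal axis. Red and orange are metformin 1 and 2, dark and light blue are control 1 and 2, and each point is 1 array. Metformin 2 is the highest sample for most core and lid genes and metformin 1 for Psme1 and Psme2.

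**Figure D2:**
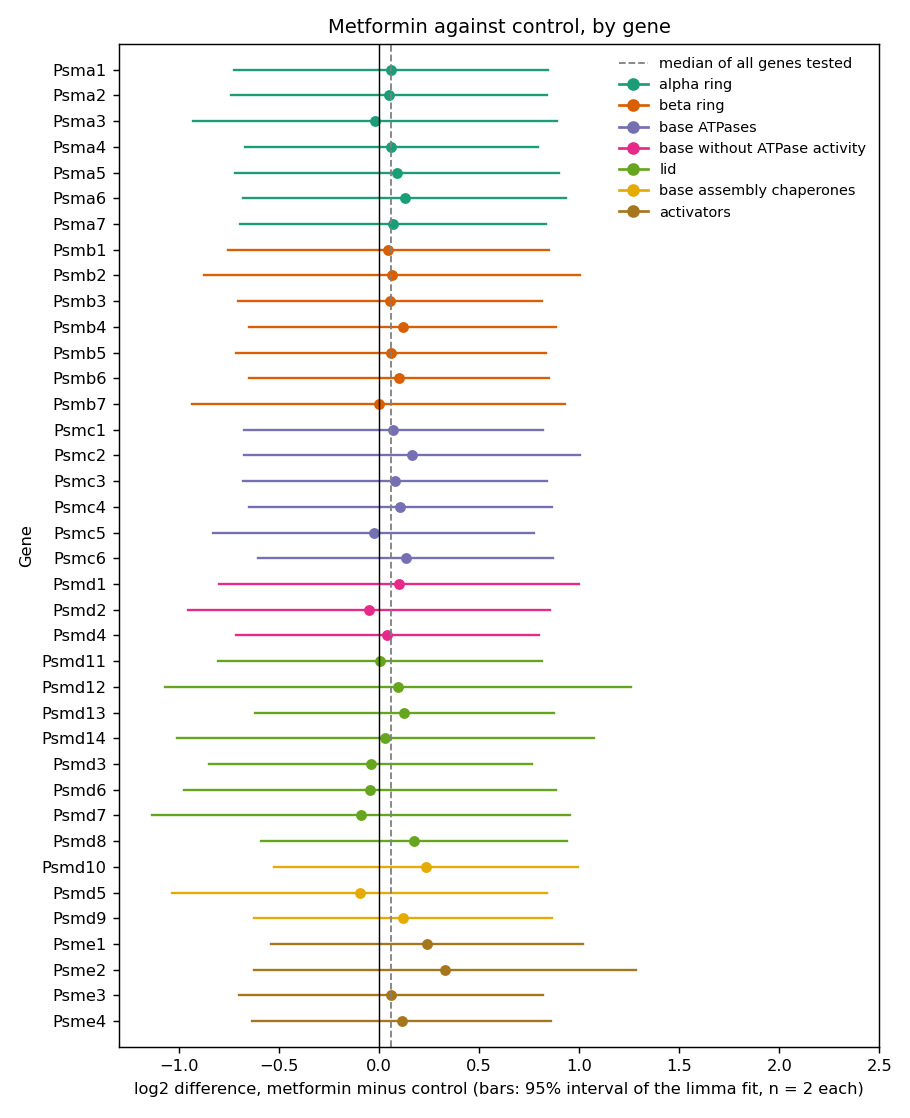
Log2 difference of each proteasome gene, metformin minus control, on the horizontal axis, with the 95% interval of limma's fit (n = 2 each). The dashed line is the median of all genes tested. All 38 intervals include 0.

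The promoters of the proteasome genes are shown for those that hold the letters of the antioxidant response element core, the element through which Nfe2l1 is known to act. Its part in the levels measured here was not tested. RefSeq (GRCm38.p6) gave promoters for 32 of the 38 genes. In the 250 bases before the annotated start, TGACNNNGC on either strand was found in 5 of 32 genes, or 15.6%, beside 11.5% of the 27025 genes in that table. Capitals mark the match, and each sequence runs 5′ to 3′ on the strand of its gene.
Psmb5, chr14:54617996-54618245, minus strand: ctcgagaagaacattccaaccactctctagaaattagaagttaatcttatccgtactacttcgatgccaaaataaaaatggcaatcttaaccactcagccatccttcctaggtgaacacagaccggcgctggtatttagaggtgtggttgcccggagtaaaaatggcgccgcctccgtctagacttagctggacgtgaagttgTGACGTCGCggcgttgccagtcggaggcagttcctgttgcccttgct
Psmb6, chr11:70525107-70525356, plus strand: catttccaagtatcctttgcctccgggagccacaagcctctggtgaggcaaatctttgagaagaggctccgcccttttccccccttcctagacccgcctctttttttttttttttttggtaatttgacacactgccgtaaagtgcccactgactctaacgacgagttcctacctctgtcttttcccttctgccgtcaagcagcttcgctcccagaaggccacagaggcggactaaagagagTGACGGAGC
Psmc6, chr14:45329574-45329823, plus strand: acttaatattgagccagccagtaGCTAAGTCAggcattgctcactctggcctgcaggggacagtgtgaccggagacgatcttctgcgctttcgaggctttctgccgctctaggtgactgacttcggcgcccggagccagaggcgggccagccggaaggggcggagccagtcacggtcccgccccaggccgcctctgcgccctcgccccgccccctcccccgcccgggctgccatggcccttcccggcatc
Psmd12, chr11:107479278-107479527, plus strand: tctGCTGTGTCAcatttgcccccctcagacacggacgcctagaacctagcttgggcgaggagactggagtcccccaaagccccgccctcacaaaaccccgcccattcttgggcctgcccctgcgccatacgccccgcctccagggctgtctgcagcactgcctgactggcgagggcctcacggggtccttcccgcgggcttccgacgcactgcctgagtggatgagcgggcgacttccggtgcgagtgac
Psmd9, chr5:123227940-123228189, plus strand: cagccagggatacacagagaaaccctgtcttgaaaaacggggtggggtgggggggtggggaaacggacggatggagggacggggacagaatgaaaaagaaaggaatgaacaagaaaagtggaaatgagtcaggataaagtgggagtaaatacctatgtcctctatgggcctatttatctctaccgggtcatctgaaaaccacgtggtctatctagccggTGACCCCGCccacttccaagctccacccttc
The match began at position -47 in Psmb5 and -9 in Psmb6, both of them catalytic subunits, counting -1 as the base before the start. In Psmd9 it began at -31, and in Psmc6 and Psmd12, where it lay on the opposite strand, at -227 and -247. CCAAT was found in 12 of the 32 genes, or 37.5%, beside 37.5% of all genes, and CACGTG in 3, or 9.38%, beside 6.86%. No test was made of these shares. A match of letters is a description and not evidence of binding.

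Alpha ring subunits form the gated entrance of the core. All 7 were measured, 6 with a higher mean with metformin and 1 with a lower one, at a median difference of 0.06. Psma6 had the highest difference of the ring, reading 3.33 and 3.59 in metformin 1 and 2, against 3.20 and 3.47 in control 1 and 2 (log2 of signal over the 75th percentile of its array, as all levels below), a difference of 0.13 (SE 0.30, n = 2 each). The groups overlapped, since control 2 lay above metformin 1. Psma3 had the lowest, with 4.55 and 5.13 in metformin 1 and 2, against 4.79 and 4.93 in control 1 and 2 (difference -0.02, SE 0.34). Here the metformin samples lay on either side of both controls. Psma4 was the steadiest gene of the ring: it read 3.34 and 3.37 with metformin and 3.31 and 3.29 in controls, without overlap, a difference of only 0.06 (SE 0.27). A second, dimmer Psma4 probe differed by 0.05 and overlapped, at 2.25 and 2.36 with metformin and 2.18 and 2.33 in controls.

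Among the beta subunits, which line the proteolytic chamber, 6 of 7 had a higher and 1 a lower mean with metformin, at a median of 0.06, and none was free of overlap. Psmb5, which carries the chymotrypsin-like activity and is the main target of proteasome inhibitor drugs, read 5.46 and 5.74 in metformin 1 and 2, against 5.50 and 5.58 in control 1 and 2. Its difference was 0.06 (SE 0.29), and a dimmer second probe for it differed by -0.04, so the direction depended on the probe. Psmb6, with the caspase-like activity, read 5.31 and 5.47 with metformin and 5.25 and 5.34 in controls, a difference of 0.10 (SE 0.28). Psmb7, with the trypsin-like activity, read 2.12 and 2.64 with metformin and 2.20 and 2.57 in controls, a difference of -0.0034 (SE 0.35). All 3 catalytic genes thus overlapped between the groups, with metformin 2 the highest sample in each. The structural subunit Psmb4 had the highest difference of the ring, 0.12 (SE 0.29), with 5.20 and 5.45 with metformin and 5.21 in both controls. The other structural subunits, Psmb1, Psmb2 and Psmb3, differed by 0.04, 0.06 and 0.05.

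The 6 ATPases form the ring that unfolds substrates and opens the gate of the core. They had a median difference of 0.09, with 5 higher and 1 lower. Psmc2 had the highest difference, 0.17 (SE 0.31), reading 4.37 and 4.75 in metformin 1 and 2, against 4.26 and 4.52 in control 1 and 2. It overlapped, and its second probe differed by 0.06. Psmc6 was the ATPase without overlap: it read 1.69 and 1.78 with metformin and 1.57 and 1.62 in controls, a difference of 0.13 (SE 0.28). Psmc5 had the lowest, -0.03 (SE 0.30), with 3.22 and 3.58 with metformin around 3.39 and 3.47 in controls.

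Outside the ATPase ring, the base holds the scaffolds Psmd1 and Psmd2 and the ubiquitin receptor Psmd4. Psmd1 read 3.66 and 4.22 in metformin 1 and 2, against 3.76 and 3.92 in control 1 and 2, a difference of 0.10 (SE 0.34). Psmd2 read 3.14 and 3.64 with metformin and 3.28 and 3.60 in controls, a difference of -0.05 (SE 0.34). In both genes the metformin samples enclosed the controls. Psmd4 differed by 0.04 (SE 0.28), with controls equal at 4.65.

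In the lid, which holds the deubiquitinase Psmd14 and its partner Psmd7, 5 of 8 genes had a higher and 3 a lower mean with metformin, at a median of 0.02. Psmd8 had the highest difference, reading 2.82 and 2.61 in metformin 1 and 2, against 2.60 and 2.48 in control 1 and 2, without overlap (difference 0.17, SE 0.29). It ran against most of the lid in being higher in metformin 1 than in metformin 2. Psmd13 was also free of overlap, with 2.85 and 2.79 with metformin and 2.62 and 2.77 in controls (difference 0.13, SE 0.28). Psmd7 had the lowest difference, -0.09 (SE 0.39), with 1.54 and 2.26 with metformin and 1.79 and 2.19 in controls. The deubiquitinase gene Psmd14 read 0.55 and 1.14 with metformin and 0.53 and 1.10 in controls, so the samples numbered 2 lay about 0.59 and 0.58 above those numbered 1 in metformin and control, while the groups differed by 0.03 (SE 0.39). Psmd12, a scaffold of the lid, showed the same picture more widely, with 3.37 and 4.12 with metformin and 3.31 and 3.99 in controls. Psmd3, Psmd6 and Psmd11 made up the rest of the lid and differed by between -0.05 and 0.0037.

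Chaperones of base assembly bind single ATPases until the base is complete and are absent from the finished particle. Psmd10, also known as gankyrin, read 0.61 and 0.48 in metformin 1 and 2, against 0.40 and 0.21 in control 1 and 2, a difference of 0.23 (SE 0.28). Both metformin values lay above both controls, and a second probe differed by 0.24. Psmd9 read -0.17 and -0.32 with metformin and -0.35 and -0.38 in controls, also without overlap (difference 0.12, SE 0.28). Its second probe differed by 0.15 and overlapped, with metformin 2 at -1.07 below control 2 at -1.06. Psmd5 ran the other way at -0.10 (SE 0.35), with -0.29 and 0.30 with metformin and -0.03 and 0.23 in controls. Its metformin samples enclosed both controls.

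The largest differences among the 38 genes were those of the activator genes Psme2 and Psme1. All 4 activator genes had a higher mean with metformin, at a median of 0.18, and 2 of them, Psme1 and Psme4, were free of overlap, where 57.6% of all genes were higher and 12.4% higher without overlap. Psme2, which with Psme1 forms the interferon-inducible activator that favours antigen peptides, read 6.89 and 6.25 in metformin 1 and 2, against 6.35 and 6.13 in control 1 and 2 (difference 0.33, SE 0.36). Metformin 1 alone was high, and metformin 2 lay between the controls; without metformin 1 the difference was 0.0058. Psme1 read 4.50 and 4.22 with metformin and 4.08 and 4.17 in controls, a difference of 0.24 (SE 0.29) that was 0.10 without metformin 1. In the authors' series table as it stands Psme1 differed by -0.02 and Psme4 by -0.17. Psme3, the nuclear activator, differed by 0.06 (SE 0.28), with 1.11 and 1.25 with metformin and 1.03 and 1.22 in controls. Psme4, an activator that acts on acetylated histones, read 0.04 and 0.02 with metformin and 0.0013 and -0.16 in controls (difference 0.11, SE 0.28), and its second, dimmer probe differed by -0.01.

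The immunoproteasome genes, which interferon gamma induces together with Psme1 and Psme2, had the same sample at the top. Psmb8 read 2.69 and 1.49 in metformin 1 and 2, against 1.21 and 1.43 in control 1 and 2 (difference 0.77, SE 0.49). Psmb9 read 2.69 and 1.86 with metformin and 1.89 and 1.73 in controls, and Psmb10 6.13 and 5.86 against 5.65 and 5.70. In all 3, metformin 1 was the highest sample, as it was for 38.5% of all genes. Without metformin 1 their differences were 0.17, 0.05 and 0.19. In the reported fit none of the 3 passed limma's test (smallest unadjusted p = 0.186). Beside them, T cell markers summed to 22.6 and 2.59 in metformin 1 and 2, against 4.11 and 1.89 in control 1 and 2. Gzma was the largest part of each sum, reading 4.20 and 0.58 with metformin and 1.40 and -0.19 in controls. By mean 7 of 7 measured T cell markers were higher, where 57.6% of all genes were. Of these 7, 0 were free of overlap, beside 12.4% of all genes higher without overlap. Their median difference was 1.06, and -0.08 without metformin 1. Among these 7, Cd8b1 was not well above background in control 1, so it was kept only through the metformin arrays. Markers of the interferon gamma response summed to 36.3 and 10.5 with metformin and to 27.2 and 10.4 in controls, a sum set almost wholly by Irf1, which read 5.10 and 3.06 with metformin and 4.70 and 3.17 in controls. By mean 5 of the 6 were higher, where 57.6% of all genes were. Of these, 2 were higher without overlap (Cxcl9 and Ido1), beside 12.4% of all genes. Gbp2 was lower without overlap, beside 8.57% of all genes. Ido1 was highest in metformin 2 (difference 0.88, unadjusted p = 0.043 in limma's test). It did not pass the adjusted test, and 346 of all genes had an unadjusted p under 0.05. The part of these cells in the levels of Psme1, Psme2 and the immunoproteasome genes was not tested, and in such tissue samples fewer cells of a type and less RNA per cell cannot be told apart.

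Psmc3ip, outside the particle, had the widest spread of the 40 genes. It read -5.14 and -3.77 in metformin 1 and 2, against -4.03 and -3.55 in control 1 and 2, a difference of -0.67 (SE 0.56) that was 0.02 without metformin 1. Metformin 1 was the lowest of the 4 samples. Psme3ip1 differed by 0.08 (SE 0.33), with 1.48 and 1.03 with metformin and 1.32 and 1.02 in controls.

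A shared order of the samples within each group ran through the subunit genes. Of the 31 core and regulatory particle subunits, 25 were higher in sample 2 than in sample 1 in both groups, as were 27 of all 38 proteasome genes. Over all genes tested 32.6% did so, over the brighter genes 40.5%, and 45.7% of all genes did the reverse. Sample 2 exceeded sample 1 by a median of 0.29 in metformin and 0.15 in control over the 31 subunits, against a median difference of 0.06 between the groups. Under the other scalings and filters the 25 became between 25 and 31, the 31 being in the authors' series table as it stands, where 58.0% of all genes did so. The numbers are labels and are not known to pair samples, and all genes share the same 4 arrays, so the counts describe these arrays.

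Metformin 2 was the highest of the 4 samples for 30 of the 38 genes and metformin 1 for the other 8, where 19.8% and 38.5% of all genes had their highest value in those samples. With the scaling used here, no proteasome gene was highest in a control. Of all 21649 genes, 4731 were highest in control 1 and 4289 in control 2. Both results depended on the scaling. Metformin 2 was the highest for 12 of the 38 genes with quantile normalization and for 0 in the authors' series table as it stands. In the latter, sample 2 lay above sample 1 in both groups for 37 of the 38 genes. Those 37 genes were therefore highest in control 2. Cycling cell markers, 6 of 6 measured, were higher in sample 2 of both groups for 5 members, beside 32.6% of all genes. They summed to 8.40 and 14.4 in metformin 1 and 2, and to 14.9 and 20.2 in control 1 and 2. Their part in the levels of the subunits was not tested.

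**Figure D3:**
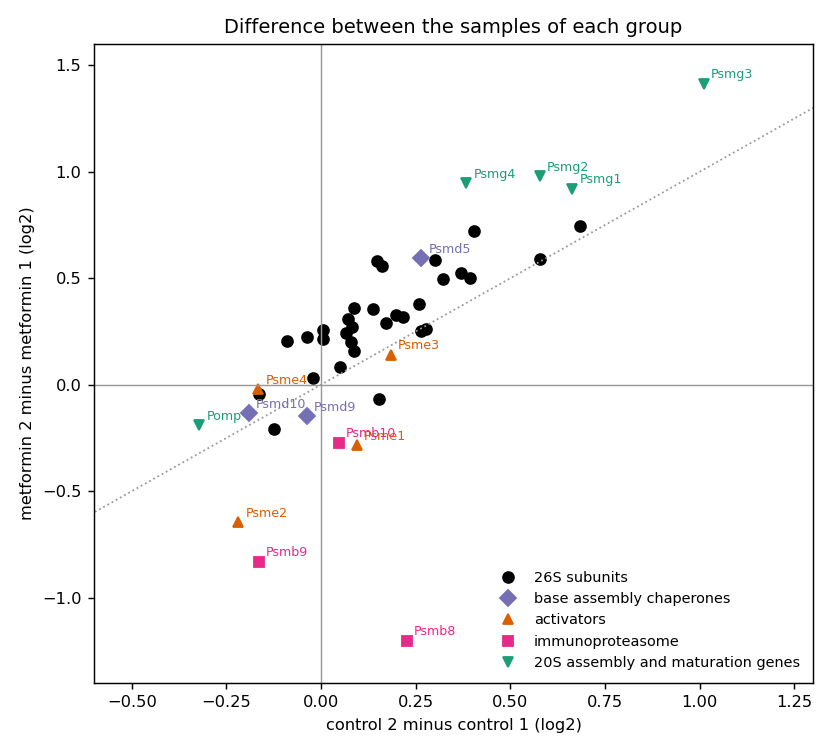
Difference between the samples of each group, with metformin 2 minus metformin 1 on the vertical axis and control 2 minus control 1 on the horizontal axis (log2). Each point is 1 gene and the dotted line marks equal differences. Most core and regulatory particle subunits lie in the upper right, Psmg1 to Psmg4 lie further out, and Psme1, Psme2 and the immunoproteasome genes lie below the horizontal line.

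Genes that assemble the core varied widely between samples. The pairing chaperones Psmg1, Psmg2, Psmg3 and Psmg4, which assemble the alpha ring, had lower means with metformin, by between 0.36 and 0.46 on the log2 scale, with overlap in all 4. Psmg3 read -0.67 and 0.75 in metformin 1 and 2, against -0.0045 and 1.01 in control 1 and 2 (difference -0.46, SE 0.64). Metformin 1 was the lowest sample for each of the 4, and without it the differences were 0.01, 0.05, 0.24 and 0.11 in the order given. Pomp, the maturation factor consumed when the core rings join, ran apart from them at 5.01 and 4.82 with metformin and 4.87 and 4.55 in controls (difference 0.21, SE 0.30).

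Partners of the particle outside the symbol rule numbered 9 measured, with a median difference of 0.06. Of the 9, 5 were higher and 4 lower, where 57.6% of all genes were higher. Psmf1, an inhibitor of the core, and Akirin2, a factor that brings proteasomes into the nucleus, were the 2 without overlap. Both were higher with metformin, where 12.4% of all genes were higher without overlap. Akirin2 read 2.25 and 2.12 in metformin 1 and 2, against 2.07 and 2.02 in control 1 and 2 (difference 0.14, SE 0.28), and Psmf1 read -0.62 and -0.59 with metformin and -0.83 and -0.67 in controls (difference 0.14, SE 0.28). Usp14, a deubiquitinase that docks on the base, had the lowest difference, -0.24 (SE 0.66), with 1.75 and 3.21 with metformin and 2.20 and 3.24 in controls. Its sample 2 was the higher in both groups. Of the 9 partners 4 had that order and 3 the reverse, where 32.6% and 45.7% of all genes did.

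Ubiquitin genes and the shuttle factors that carry tagged proteins to the proteasome were near level too. The 4 ubiquitin genes and Uba1, the enzyme that activates ubiquitin, had a median difference of 0.14, from -0.13 in Rps27a to 0.26 in Ubb. Rps27a, which encodes ubiquitin fused to a ribosomal protein, read 6.37 and 7.15 in metformin 1 and 2, against 6.73 and 7.04 in control 1 and 2. Ubb, a stress-responsive polyubiquitin gene, read 7.60 and 7.01 with metformin and 7.34 and 6.75 in controls. Uba1 was the member without overlap, at 5.33 and 5.45 with metformin and 5.15 and 5.28 in controls (difference 0.17, SE 0.28). That was 1 of 5, beside 12.4% of all genes higher without overlap. The 9 shuttle genes had a median difference of 0.03, from -0.09 in Ubqln2 to 0.14 in Ubqln1. Of the 9, 8 were higher in sample 2 than in sample 1 in both groups, beside 32.6% of all genes. Of the ubiquitin genes with Uba1, 2 of 5 had that order and 1 the reverse. Ubqln1 read 2.74 and 3.01 with metformin and 2.66 and 2.81 in controls, and Ubqln2 read -1.43 and -1.09 with metformin and -1.27 and -1.07 in controls. Both overlapped.

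Of the regulators, Nfe2l1, the activator of proteasome genes, read -2.97 and -2.35 in metformin 1 and 2, against -2.88 and -2.39 in control 1 and 2, a difference of -0.03 (SE 0.38). Nfe2l2, its relative in the oxidative stress response, read 4.22 and 3.84 with metformin and 3.60 and 3.70 in controls, without overlap (difference 0.38, SE 0.30, unadjusted p = 0.269). It was 1 of 3 regulators higher without overlap, beside 12.4% of all genes. Ngly1, the enzyme that activates the Nfe2l1 protein, differed by 0.04 (SE 0.35). Across the 6 related lists no gene passed limma's adjusted test.

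**Figure D4:**
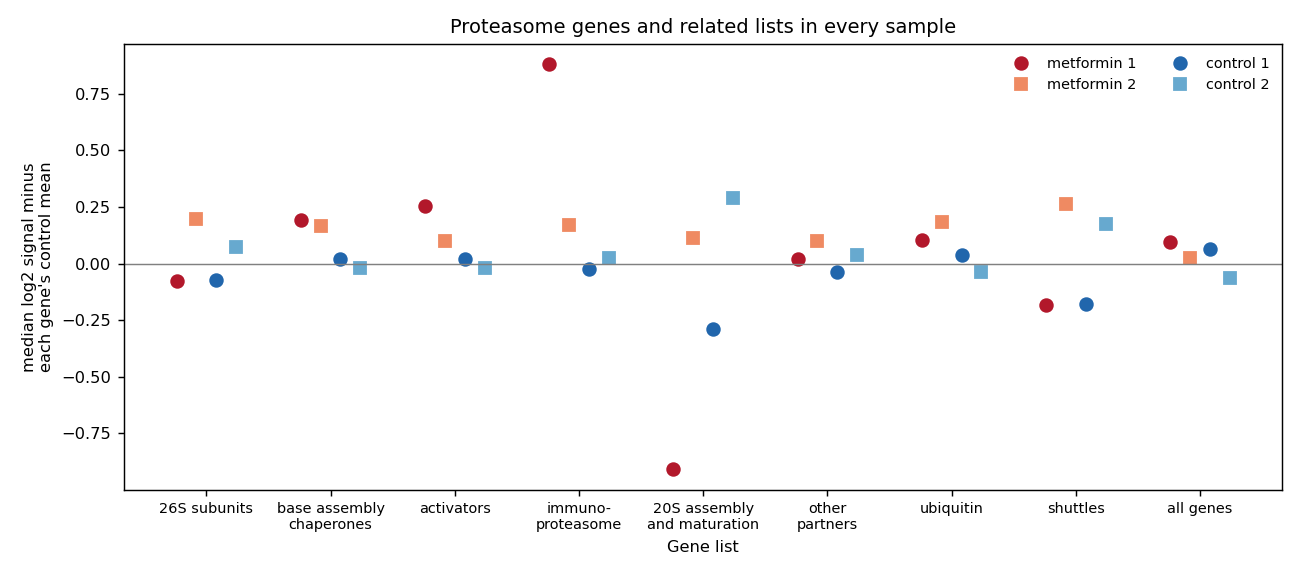
Vertical axis: median level of each gene list in every sample (log2, each gene's control mean set to 0). Horizontal axis: the lists, with all genes at the right. Red and orange are metformin 1 and 2, dark and light blue are control 1 and 2. The immunoproteasome list is highest in metformin 1 at 0.88, the core assembly list is lowest there at -0.91, and the subunit list spans from -0.08 to 0.20.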

How the data were processed

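Spot intensity values on a linear scale came from Agilent Feature Extraction 10.7.3.1 files, 1 per array, per the file headers. The processed signal was already background-subtracted and detrended within each array, per the file headers, and was not scaled between arrays. The authors also deposited a series table of intensity values described as normalized. Its values equalled the raw median spot signal for all 39030 probes with 1 spot, so it served only as an alternative.

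Spots marked as outliers were left out, spots of a probe were averaged, and log2 of the 75th percentile of each array's 39429 probes was subtracted. Accessions were matched without versions to RefSeq symbols (GRCm38.p6), which named 27508 probes. A probe was kept if well above background on both arrays of a group (26441 probes), and the brightest probe of a gene was used. The fit was limma 3.58.1 in R 4.3.3 over 21649 genes and transcripts, two-sided, with Benjamini-Hochberg adjustment and a threshold of 0.05. It was tested on simulated data with planted changes far larger than the differences of the proteasome genes. That test therefore does not bear on calling differences of their size. Residual degrees of freedom were 2, the prior added 2.43, and the number of arrays limits the precision.

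The members and lists were chosen with earlier results of these data known. Values in every sample are given for the highest and lowest gene of each sub-complex, the catalytic and activator genes, and genes without overlap. Psmd4, Psmd12, Psmd14, Akirin2, the Psmg genes and Nfe2l2 are also described, some chosen after their values were seen. Mean spot signals were absent, so normexp used the median signal in place of the planned mean signal. Alternatives changed background correction, scaling, filters, probe choice, file, replicate block and samples. Arrays lay on 1 slide, per the file headers, with each group at adjacent positions, so position and treatment cannot be told apart.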

Additional observations from a re-analysis of the deposited data

How the results depend on the processing

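With no member called, 0 of 38 genes passed under any of the 14 alternatives. The count of genes without overlap and higher with metformin, 8 in the reported fit, was 3 with quantile normalization (14.0% of all genes) and 0 in the series table as deposited (1.34%). It was between 10 and 36 when 1 sample was left out: 36 without metformin 1 (28.0%), 17 without control 2 (24.6%), and 10 without metformin 2 (42.7%) and without control 1 (42.6%). The count lower, 0 in the reported fit, was 1 with quantile normalization (7.82% of all genes) and between 0 and 19 when 1 sample was left out, the 19 being without metformin 2 (31.7%). The median difference of 0.07 was -0.19 in the series table as deposited, where the median of all genes was -0.17, and 0.19 with the array median, where that of all genes was 0.19, against 0.06 in the reported fit. It was -0.03 with quantile normalization, and between -0.06 and 0.19 when 1 sample was left out (-0.06 without metformin 2, 0.19 without metformin 1, 0.02 without control 1, 0.13 without control 2). Relative to all genes, the median was 0.0068 in the reported fit. A sample left alone in its group was assumed to vary like the other group. With the replicate number as a block, the median was again 0.07 and 0 members passed (smallest adjusted p over all genes 0.634). The numbers are not known to pair samples: replicate 1 minus replicate 2 correlated at 0.56 between the groups across genes. No member's difference was called, so sign changes are given as counts: of 38 genes, 18 changed sign with quantile normalization, 29 in the series table as deposited, 8 with the array median and 1 with normexp, and between 8 and 18 when 1 sample was left out. In each case the cause was not tested.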
